A study of Mus musculus with 8 samples.

Results

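The GATA factors of heart and blood were followed across 4 stages as cultured mouse embryonic stem cells were turned into heart muscle cells. The 7 genes, taken by symbol from the 13540 genes of the expression table, were Gata4, Gata5 and Gata6 of the heart and endoderm, Gata1 and Gata2 of the blood, and Zfpm1 and Zfpm2, which encode their cofactors FOG1 and FOG2. All 7 were in the table. Poly(A) RNA came from 129/Ola cultures at day 0, as embryonic stem cells (ESC), at day 4, as mesodermal cells (MES), at day 5.3, as cardiac precursors (CP), and at day 10, as cardiomyocytes (CM). Each stage had 2 of the 8 libraries. The labels give the groups the same strain and no genetic change, so the stages differ in day and in the factors added. Cells formed embryoid bodies in serum-free medium, were taken apart, and reaggregated in the presence of VEGF, Activin A and BMP4. Plating in a medium that held FGF10, basic FGF and VEGF followed. The labels name no sorting of cells, so each value may mix the cell types of a culture.

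GATA factors are zinc finger proteins that bind DNA at sites with the core GATA. A pair of fingers does the work: the one nearer the carboxyl end binds the site, and the other steadies binding and holds FOG proteins, which do not bind DNA themselves and which recruit corepressors such as the NuRD complex and CtBP. GATA4, GATA5 and GATA6 act in the heart, gut and extraembryonic endoderm, and in the heart they work together with NKX2-5, TBX5 and MEF2C. GATA2 maintains blood stem and progenitor cells and is also made in endothelium, and GATA1 drives red cell and megakaryocyte formation with FOG1.

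The table gives 1 RPKM value per gene and stage (reads scaled to the length of the gene model and to sequencing depth). Because the 2 libraries of a stage have no separate values, no difference below has a replicate check, an SD or a p-value. Depth, worked out from the steps between low values, was 75.3, 62.0, 64.8 and 88.5, in units of 1000000 reads, in ESC, MES, CP and CM, and the reads behind each of the 7 genes could be recovered. Intervals in brackets are 95% Poisson intervals of those reads and cover counting error only. The summed markers of the ESC, MES and CM labels were highest at those stages, and no marker list was made for CP. The summed level of 10 pluripotency genes was 2459, 132, 50.4 and 14.2 RPKM over the 4 stages. That of 12 mesoderm genes was 16.3, 501, 84.3 and 14.7 RPKM, and that of 17 sarcomere genes 89.6, 117, 3180.0 and 15307 RPKM. The mesoderm genes Pdgfra and Fgf8 were highest in CP, at 54.4 and 20.7 RPKM against 48.3 and 16.3 RPKM in MES.

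The heart GATA genes had different orders of stages. Gata4 was near its highest level from MES on, Gata6 was higher in CP than in MES, and Gata5 was far higher in CP than in the other stages. Gata4 (ENSMUSG00000021944), which encodes a factor needed for heart tube formation, was at 0.428 RPKM in ESC (0.357 to 0.510, from 126 reads), 50.7 in MES (49.8 to 51.6), 53.2 in CP (52.3 to 54.1) and 59.3 in CM (58.5 to 60.1). The step from ESC to MES was 118-fold in RPKM, with a counting interval of 99.3 to 142. From MES on the order was MES, CP, CM, but the ratios of neighbours were close to 1, at 1.05 (1.02 to 1.08) for CP over MES and 1.11 (1.09 to 1.14) for CM over CP. These small differences exceed the counting error, and their relation to the spread between cultures is unknown.

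Gata6 (ENSMUSG00000005836), which encodes a factor of early endoderm and of the heart's outflow tract, was at 0.152 RPKM in ESC (0.107 to 0.211, from 36 reads), 28.7 in MES (27.9 to 29.4), 99.7 in CP (98.3 to 101) and 75.9 in CM (74.9 to 76.9). It was 188-fold (136 to 269) higher in MES than in ESC and 3.48-fold (3.38 to 3.58) higher in CP than in MES. Its CM level was 0.761 (0.747 to 0.776) of that in CP, so CP was its highest stage and CM the next.

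Gata5 (ENSMUSG00000015627), which encodes a factor of endocardium and of heart valve formation, was listed at 0 in ESC, where 3 reads would equal 0.0132 RPKM, at 0.503 RPKM in MES (0.406 to 0.615, from 94 reads), 84.2 in CP (82.9 to 85.5) and 9.32 in CM (8.96 to 9.69). The CP value was 168-fold (137 to 207) that of MES and 9.03-fold (8.66 to 9.42) that of CM. An antisense transcript, Gata5os, overlaps 7.87% of the exon bases of Gata5 in GENCODE M21 and followed the same order of stages at lower levels, with 0, 0.0227, 2.40 and 0.406 RPKM. The table's implied model of Gata5 is 3019 bases long, which equals the 3277 exon bases of M21 less the 258 shared with Gata5os.

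**Figure D1:**
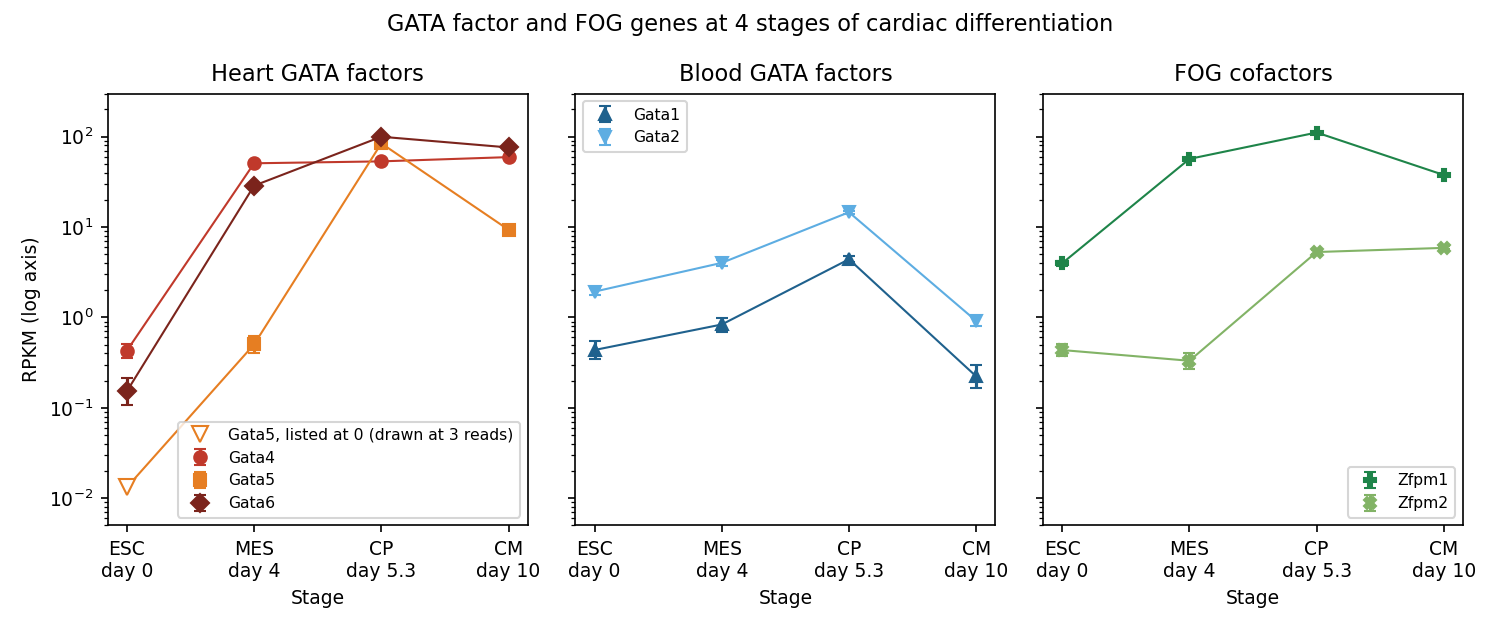
RPKM of the 7 genes (log axis) at the 4 stages, with heart GATA genes on the left, blood GATA genes in the middle and FOG genes on the right; points are the single value of a stage, bars the 95% Poisson interval of its reads, and the open triangle marks Gata5, listed at 0 in ESC and drawn at the 0.0132 RPKM of 3 reads. Gata4 is level from MES on, Gata5, Gata1 and Gata2 peak in CP, and Zfpm2 lies below Zfpm1 at every stage.

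RPKM is scaled to the length of the gene model, so levels set side by side between genes depend on those models. The implied models of Gata4, Gata5 and Gata6 are 3904, 3019 and 3136 bases long, against 3904, 3277 and 6508 exon bases in M21. Those of Zfpm1 and Zfpm2 are 3387 and 4974 bases long, against 3503 and 9536, and that of Gata2 is 3030 against 5398. Over the 4 stages the summed level of Gata4, Gata5 and Gata6 was 0.581, 79.9, 237 and 144.5 RPKM. Gata4 made up 63.5% of this sum in MES, 22.4% in CP and 41.0% in CM, and Gata6 made up 35.9%, 42.0% and 52.5%. Gata5 contributed 0.629%, 35.5% and 6.45% at those stages. Gata4 thus led in MES at 1.77 times the level of Gata6, and Gata6 led in CP and CM, where Gata4 stood at 0.534 and 0.782 of it.

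**Figure D2:**
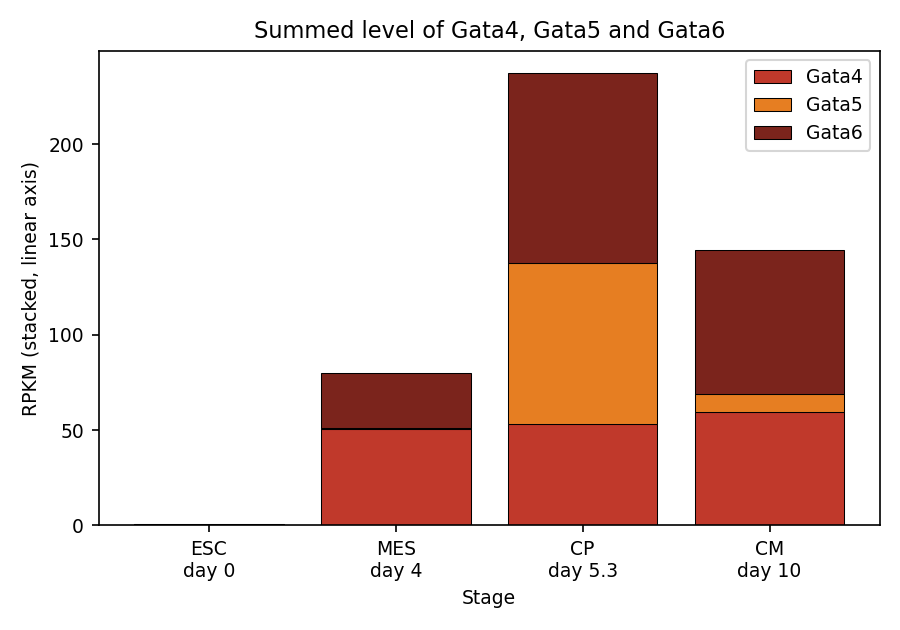
Stacked RPKM (linear axis from 0) of Gata4, Gata5 and Gata6 at each stage, 1 value per gene and stage. The sum is largest in CP at 237 RPKM, where Gata5 adds 35.5%, against 6.45% in CM.

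Extraembryonic and definitive endoderm also make GATA4 and GATA6. Of 19 endoderm genes, 13 were in the table, and their summed level was 131, 309, 263 and 841 RPKM over the stages. The matrix genes Sparc, Col4a1 and Lamb1 were its main part in ESC, CP and CM. Sparc was at 59.2, 53.5, 92.2 and 436 RPKM, Col4a1 at 11.9, 61.3, 65.6 and 205 RPKM, and Lamb1 at 46.7, 41.9, 47.4 and 183 RPKM. The sum therefore says little of the other genes of the list. Sox17, a factor gene of endoderm and endothelium, was at 0.104, 9.34, 11.5 and 2.72 RPKM and Foxa2 at 0.125, 6.88, 0.561 and 0.0277 RPKM. Cxcr4, which marks definitive endoderm and also mesoderm, was at 0.646, 56.9, 3.77 and 1.65 RPKM, and Cer1, a secreted inhibitor gene of anterior endoderm, was listed at 0 in ESC and CM and stood at 47.9 RPKM in MES and 0.0791 in CP. In CP against MES, 3 of the 13 were at least 2-fold higher and 4 were lower, against 8.91% and 3.91% of all genes. The higher ones were Dab2, at 2.14 and 13.5 RPKM in MES and CP, Hhex, at 4.27 and 12.3 RPKM, and Ttr, at 0.158 and 1.91 RPKM. Ttr was listed at 0 in ESC. The part of endoderm cells in the Gata4 and Gata6 levels was not tested. In whole cultures, fewer cells of a type and less RNA per cell cannot be told apart.

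The blood GATA genes shared 1 order of stages, with the highest level in CP and the lowest in CM. In CP and CM both blood genes were below each of the heart GATA genes, and in MES they were below Gata4 and Gata6 but above Gata5. In ESC both were above all 3, though the intervals of Gata1 and Gata4 overlapped. Gata1 (ENSMUSG00000031162) was at 0.436 RPKM in ESC (0.345 to 0.542, from 80 reads), 0.834 in MES (0.695 to 0.993), 4.39 in CP (4.07 to 4.73) and 0.222 in CM (0.164 to 0.295, from 48 reads). Its CP level was 5.27-fold (4.35 to 6.42) that of MES and 19.8-fold (14.7 to 27.1) that of CM. Gata2 (ENSMUSG00000015053) was at 1.93 RPKM in ESC (1.75 to 2.12), 4.01 in MES (3.73 to 4.31), 14.6 in CP (14.04 to 15.1) and 0.913 in CM (0.803 to 1.04). Its CP level was 3.63-fold (3.35 to 3.94) that of MES and 15.9-fold (13.99 to 18.2) that of CM. Both genes had the order CP, MES, ESC, CM, and none of the intervals of neighbouring levels overlapped. Gata2 exceeded Gata1 at every stage, by 3.31 times in CP and 4.81 times in MES. Together they made up 80.3% of the summed RPKM of the 5 GATA genes in ESC, where that sum was only 2.94 RPKM, and 5.72%, 7.40% and 0.780% in MES, CP and CM.

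Gata1, Gata2 and Gata5 are 3 of the 5 genes that were highest in CP, and the bases upstream of their annotated starts are shown to compare a blood gene poor in CG pairs with a blood and a heart gene rich in them. Start windows came from RefSeq (GRCm38.p6, a later build than that of the expression table). They were used for 4 of the 7 genes, Gata1, Gata2, Gata5 and Zfpm1. Any window on the chromosome of Gata6 was left out, so the count says nothing of what RefSeq holds for that gene. No sequence is shown for Gata4, Gata6, Zfpm1 and Zfpm2. The Gata1 stretch is chrX:7967911-7968160 on the minus strand and overlaps no exon of GENCODE M21. For Gata2 it is chr6:88193641-88193890 on the plus strand, upstream of the farther of 2 starts, and for Gata5 it is chr2:180334700-180334929 on the minus strand. Each is written 5′ to 3′ and ends at the start site or, for Gata5, 20 bases before it, where an exon of M21 lies. Capitals mark CG pairs and the letters GATA or TATC.
Gata1: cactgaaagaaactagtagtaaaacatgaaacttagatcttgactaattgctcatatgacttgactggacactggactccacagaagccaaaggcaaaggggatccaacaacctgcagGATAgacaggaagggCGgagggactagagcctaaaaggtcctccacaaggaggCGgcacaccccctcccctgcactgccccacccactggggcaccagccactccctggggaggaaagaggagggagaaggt
Gata2: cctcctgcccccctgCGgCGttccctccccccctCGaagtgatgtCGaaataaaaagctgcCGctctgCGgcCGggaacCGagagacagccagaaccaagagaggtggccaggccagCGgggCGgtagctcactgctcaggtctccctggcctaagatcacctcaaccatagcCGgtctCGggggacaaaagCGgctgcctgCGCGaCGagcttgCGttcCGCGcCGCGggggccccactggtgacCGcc
Gata5: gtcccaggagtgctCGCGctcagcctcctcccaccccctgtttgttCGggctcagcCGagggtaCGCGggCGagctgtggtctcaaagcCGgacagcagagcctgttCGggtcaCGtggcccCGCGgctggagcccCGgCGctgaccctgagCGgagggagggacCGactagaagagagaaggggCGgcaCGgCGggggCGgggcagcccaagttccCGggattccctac
The sequences differ in CG pairs, of which the 250 bases upstream held 2 in Gata1 and 22 each in Gata2 and Gata5. The median over 32851 RefSeq windows of this length was 6. The window of the nearer Gata2 start, whose 250 bases are all exon in M21, had 24 CG pairs, and that of Zfpm1 had 28. The hexamer AGATAA was searched on both strands, together with AGATAG, with TGATAA, and likewise TGATAG, forms that GATA factors prefer; they occurred in 0 of the 5 windows, against 26.5% of all windows. Gata1 alone among the 5 held the shorter core GATA, which 53.6% of all windows hold on either strand. A match describes letters only, and its lack says nothing of where a factor binds.

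The FOG genes differed from each other in level and in order of stages. Zfpm1 (ENSMUSG00000049577), whose product FOG1 is the partner of GATA1 in red cells and megakaryocytes and is also made in the embryonic heart, was at 3.97 RPKM in ESC (3.73 to 4.23), 56.7 in MES (55.7 to 57.7), 111 in CP (109.6 to 112) and 37.6 in CM (36.9 to 38.3). It was 14.3-fold (13.4 to 15.2) higher in MES than in ESC, 1.96-fold (1.92 to 2.00) higher in CP than in MES and 2.95-fold (2.89 to 3.02) lower in CM than in CP. Zfpm2 (ENSMUSG00000022306), whose product FOG2 is the partner of GATA4 in heart and coronary development, was at 0.435 RPKM in ESC (0.371 to 0.507), 0.331 in MES (0.270 to 0.402), 5.29 in CP (5.04 to 5.54) and 5.88 in CM (5.65 to 6.11). The intervals of ESC and MES overlapped for Zfpm2, though the ratio of MES to ESC, 0.761 (0.588 to 0.980), lay below 1. CP was 16.0-fold (13.1 to 19.7) above MES. The CM level was 1.11 times (1.05 to 1.18) that of CP.

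Zfpm1 was the more abundant of the FOG genes at every stage, in the cardiomyocyte cultures too. The ratio of Zfpm1 to Zfpm2 was 9.14, 171, 21 and 6.40 over the 4 stages, so Zfpm2 made up 0.581% of their sum in MES and 13.5% in CM. Zfpm1 and Gata1 were both highest in CP, at 111 and 4.39 RPKM. They differed in their lowest stage, which was ESC for Zfpm1 (3.97 RPKM, with Gata1 at 0.436) and CM for Gata1 (0.222 RPKM, with Zfpm1 at 37.6). The summed RPKM of the 5 GATA genes was 0.668 of that of the FOG genes in ESC and 1.49, 2.20 and 3.35 times it in MES, CP and CM.

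To place the 7 genes among all 13540, differences were taken on the log2(RPKM + 1) scale, which understates those of genes with low values, and counted from 2-fold on. In MES against ESC, 3 of the 7 were at least 2-fold higher (Gata4 5.18, Gata6 4.69 and Zfpm1 3.54 on that scale), and 11.1% of all genes were. Gata4 had the 13th largest difference, with 12 genes above it. None of the 7 was 2-fold lower, as 11.2% of all genes were. In CP against MES, 5 of 7 were at least 2-fold higher, against 8.91% of all genes, with Gata5 at 5.83, Zfpm2 at 2.24, Gata6 at 1.76, Gata2 at 1.64 and Gata1 at 1.56. Zfpm1 was just under the limit at 0.96 and Gata4 was at 0.07. None was lower, as 3.91% of all genes were. In CM against CP, 4 of 7 were at least 2-fold lower, against 12.8% of all genes, with Gata5 at -3.05, Gata2 at -3.02, Gata1 at -2.14 and Zfpm1 at -1.54. Gata6 was at -0.39, Gata4 at 0.15 and Zfpm2 at 0.13, and none was 2-fold higher, as 11.3% of all genes were. The median of the 7 was 0.78, 1.64 and -1.54 in the 3 comparisons, and that of all genes 0.05, -0.03 and -0.15. By highest stage, 5 of the 7 peaked in CP (Gata5, Gata6, Gata1, Gata2 and Zfpm1), where 17.0% of all genes had their highest value, and 2 in CM. The MES and CP values enter 2 comparisons each, so neighbouring comparisons are not independent, and the 7 genes were chosen with earlier results of these data known.

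**Figure D3:**
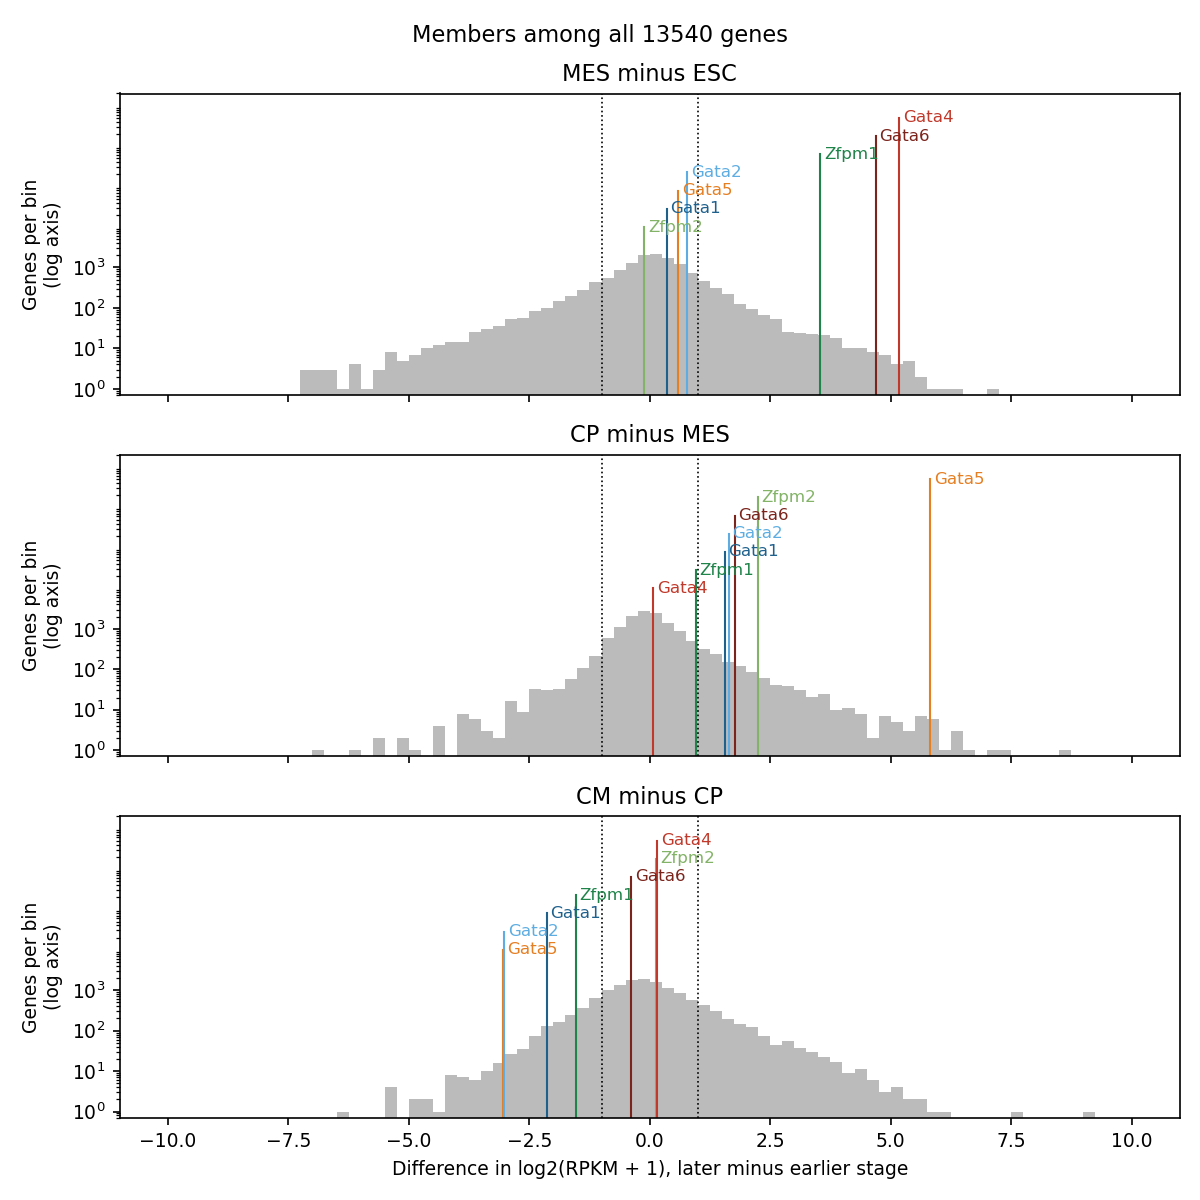
Histograms of all 13540 genes by difference in log2(RPKM + 1) between adjacent stages (genes per bin on a log axis), with a coloured line for each of the 7 genes (height only separates the names) and dotted lines at 2-fold. Gata4, Gata6 and Zfpm1 lie beyond 2-fold in MES against ESC, 5 genes do so in CP against MES, and 4 lie beyond 2-fold on the lower side in CM against CP.

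Many genes whose products work with GATA4 in the heart were higher in MES and CP. For this list and those below, the shares over all genes were 11.1% higher and 11.2% lower in MES against ESC. They were 8.91% higher and 3.91% lower in CP against MES, and 11.3% higher and 12.8% lower in CM against CP. Of 16 cardiac partners, all in the table, 10 were at least 2-fold higher in MES than in ESC and 0 lower (median 1.60). Hand1 and Hand2, which encode helix-loop-helix factors of the ventricles, went from 1.98 to 172 RPKM and from 0.0653 to 30.8 RPKM. In CP against MES, 8 were higher and 1, Hand1, was lower (median 1.20), with Nkx2-5 at 1.30 and 70.1 RPKM and Mef2c at 1.83 and 74.6 RPKM. In CM against CP, 2 were higher and 5 lower (median -0.14). Nkx2-5, a homeobox factor that binds GATA4, and Mef2a were the higher ones, at 70.1 and 178 RPKM and at 9.73 and 27.3 RPKM. Nkx2-5 and Tbx5, with 0.440 and 10.00 RPKM in MES and CP, were thus low in MES, where Gata4 was already at 50.7 RPKM.

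Most heart genes known to carry GATA sites were highest in CM. Of 18 such genes, 17 were in the table, of which 2 were at least 2-fold higher and 1 lower in MES than in ESC (median 0.47), 10 higher and 0 lower in CP than in MES (median 1.51), and 14 higher and 1 lower in CM than in CP (median 2.15). The last step is the one in which Gata4 and Gata6 differed by under 2-fold and Gata5 was 9.03-fold lower. Nppa, which encodes atrial natriuretic peptide, was at 0.239, 0.194, 0.232 and 693 RPKM over the stages, and Corin, whose product activates that peptide, at 0.0491, 0.498, 2.54 and 12.2 RPKM. Tnnc1, the gene of cardiac troponin C, went from 1.46 RPKM in MES to 315 in CP. The exception on the lower side in CM was the cell cycle kinase gene Cdk4, at 195 and 63.7 RPKM.

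**Figure D4:**
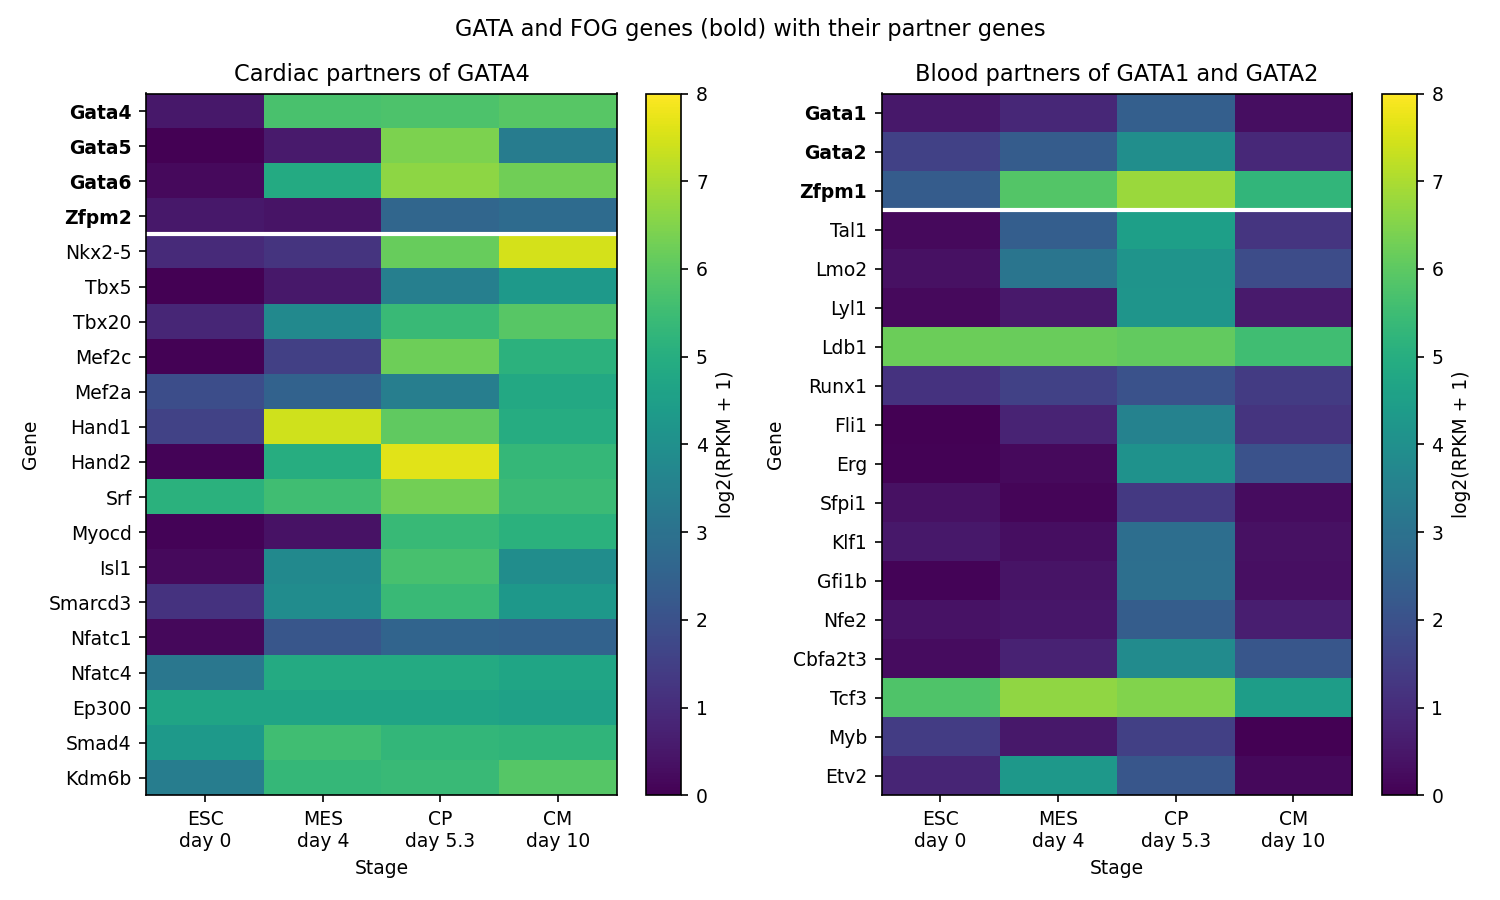
Colour gives log2(RPKM + 1) from 0 to 8 for the GATA and FOG genes (bold, above the white line) and for their cardiac (left) and blood (right) partner genes at the 4 stages; Sfpi1 is the table's name for Spi1. On the right most genes are brightest in CP, as Gata1 and Gata2 are, while Ldb1 and Tcf3 are bright at every stage.

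Most partners of GATA1 and GATA2 in blood were highest in CP. Of 15, all in the table, 3 were at least 2-fold higher in MES than in ESC (median 0.33), 11 were higher and 1, Etv2, was lower in CP than in MES (median 1.89), and 13 were lower and 0 higher in CM than in CP (median -2.03). Tal1 and Lmo2, whose products join GATA1 in a complex on DNA, were at 0.157, 4.23, 21.9 and 1.36 RPKM and at 0.295, 7.64, 16.7 and 2.61 RPKM. Ldb1, the adaptor of the same complex, differed by under 2-fold in each step, at 72.5, 70.8, 66.0 and 46.2 RPKM. Klf1 and Gfi1b, red cell factors, were at 0.233 and 0.327 RPKM in MES, 6.43 and 6.53 RPKM in CP and 0.289 and 0.242 RPKM in CM. Etv2, a factor of early endothelium and blood, went from 18.1 RPKM in MES to 3.45 in CP.

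Red cell genes with GATA sites differed widely in their CP level. Of 19, 14 were in the table, and 9 of these were at least 2-fold higher and 1 lower in CP than in MES (median 1.23), while 1 was higher and 9 were lower in CM than in CP (median -1.16). In MES against ESC, 0 of the 14 were 2-fold apart. All 5 globin genes were highest in CP. Of those of the embryo, Hbb-bh1 was at 129 RPKM, Hba-x at 84.7 RPKM and Hbb-y at 2.57 RPKM, and of the adult ones Hba-a1 was at 4.62 RPKM and Hbb-b1 at 2.04 RPKM. Alas2, which starts haem synthesis in red cells, was at 3.45 RPKM and Epb4.2 at 1.21 RPKM. Tfrc, the transferrin receptor gene, was the list's gene that was lower in CP, at 28.7 and 9.19 RPKM. The list's summed level was 103, 98.0, 318 and 82.7 RPKM, and 4 of its globin genes (Hbb-bh1, Hbb-y, Hba-x and Hbb-b1) were listed at 0 in ESC, MES or both. Of 15 endothelial genes, 13 were at least 2-fold higher and 0 lower in CP than in MES (median 3.70), after 1 higher and 5 lower in MES than in ESC (median -0.59), and their summed level was 46.2, 77.6, 457 and 221 RPKM, with Emcn listed at 0 in ESC and MES and Edn1 in MES. From CP to CM, 7 endothelial genes were lower and 2 higher (median -0.99). Cdh5, the VE-cadherin gene, was at 71.3 RPKM in CP and at 35.5 in CM. Sox18, a factor gene of endothelium, went from 62.1 to 6.18 RPKM and Tek, the angiopoietin receptor gene, from 27.1 to 2.49 RPKM. Pecam1, which marks platelet and endothelial cells, was at 24.9 and 22.4 RPKM, and it was also at 16.2 RPKM in ESC. The part of blood and endothelial cells in the Gata1 and Gata2 levels was not tested.

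By shape over the 4 stages, the 7 genes differed in how close their nearest neighbours in the table lay. Likeness is the root mean squared distance between mean-centred log2(RPKM + 1) profiles, given with no test, since 4 values fix a profile only loosely. Nearest to Gata4 was Nrp1, a VEGF and semaphorin receptor gene, at a distance of 0.27, then Bmp7 at 0.52. To Gata6 it was the entry of the miRNA gene Mir1903 at 0.14, whose 80 bases all lie in an exon of Nrp1, followed by Rbm24, a heart splicing regulator, at 0.37. To Gata5 it was Hba-x at 0.64, then Unc45b, a myosin chaperone gene, at 0.65 and the endothelial genes Tie1 and Sox18 at 0.67 each. To Gata1 the nearest were Shisa6 and Smpd3 at 0.05 and 0.07, and to Gata2 Padi3 and Cgnl1 at 0.12 and 0.16. Hhex, a homeobox gene of endoderm and blood vessel precursors, was among the 4 nearest of both, at 0.14 and 0.26. Zfpm1 lay nearest to Bmp5 (0.18) and Igfbp4 (0.24), and Zfpm2 to Thsd4 and to Irx4, a gene of the ventricles (0.07 and 0.08). Within 0.25 lay 22 genes for Gata1 and 27 for Zfpm2, whose ranges are small, but 0 for Gata4 and Gata5, 1 for Gata6 and 2 each for Gata2 and Zfpm1.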

How the data were processed

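RNA was sequenced at 4 stages, with 2 libraries each, and the deposited table gives RPKM, 1 value per gene and stage, per the file headers. Novoalign 2.07.00 and mm9 are named in the submitters' processing notes. How reads were counted, on which gene models, and how the authors joined the 2 libraries of a stage: not given in the sources used here. Each listed gene exceeds 1 RPKM in at least 1 stage (lowest maximum 1.00).

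Depth ratios were found from low values, which are whole multiples of a step. With the ratios set, 86.0% of 1500 genes with a value below 1 RPKM gave whole reads in all stages (relative tolerance 5e-07), and 0.0667% did with wrong ratios. Absolute depth came from M21 exon lengths (824 of 3350 genes within a single narrow peak). The members' implied lengths then lay within 0.00019 bases of whole numbers. Reads are the smallest whole numbers, multiplied by 2 for Gata1, where this gives its M21 length of 2438 bases; true reads could be a multiple. Ratio intervals are exact conditional binomial. No test was possible. Differences use log2(RPKM + 1), and counts a 2-fold minimum. The script was tested on simulated data.

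The rule for named genes takes all 7 members, the counts of 13 lists (176 genes, 150 in the table, 1 of them matched by ID), their members with the largest differences or highest levels, of which the text gives a part, and the 4 genes nearest in profile. Members and lists were chosen with earlier results of these data known. Of the 32-base words of the members' longest M21 transcripts, 6.90% (Gata5), 0.773% (Gata6) and 0% (the other 5) occur in other genes, and none in another member. Python 3.11.15, numpy 2.4.6, pandas 2.3.3 and scipy 1.17.1 were used.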

Additional observations from a re-analysis of the deposited data

How the results depend on the processing

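Of 21 differences (7 genes in 3 comparisons), 0 changed sign and all 12 that were at least 2-fold stayed so under 6 settings. These were pseudocounts of 0.1 and 0.5 RPKM, only genes that reach 3 RPKM, median-of-ratios scaling, quantile normalization and each stage scaled to a sum of 1000000. All 7 genes reach 3 RPKM, so that filter could not alter their values or counts and tests nothing for them. A minimum of 4-fold was tried for the counts. Of the 42 recounts, 39 were within 1.5 times. The exceptions were the genes higher in MES than in ESC, 3 as reported and 5 at a pseudocount of 0.1 RPKM or with stages scaled to a sum of 1000000 (Gata5 and Gata2 added; a sum of 1000000 also lessens the weight of the pseudocount), and those higher in CP than in MES, 5 as reported and 2 at 4-fold (Gata5 and Zfpm2). Quantile normalization and the sum of 1000000 put Zfpm1 over 2-fold in CP against MES, for 6 genes. The median of all genes in CM against CP moved from -0.15 to -0.04 with median-of-ratios scaling and to -0.29 with the sum, and no member changed direction. Over all genes, 4-fold left 2.78%, 2.74% and 3.23% higher and 3.47%, 0.871% and 2.36% lower in the 3 comparisons, and a pseudocount of 0.1 gave 16.8%, 14.0% and 14.3% higher and 15.5%, 6.96% and 19.8% lower. The sum gave 16.2% higher in MES against ESC, 13.4% higher in CP against MES and 20.7% lower in CM against CP, and quantile normalization gave 7.69% higher in CP against MES. No paired analysis was possible because the table has no replicate columns, and leaving out a replicate was not run for that reason. Depth limits the low values: the 36 reads of Gata6 in ESC leave 0.107 to 0.211 RPKM.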

Other observations

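Among the remaining GATA-type zinc finger genes, Gata3, a factor of T cells and of trophoblast and no member of the group described, was at 0.606, 3.62, 2.30 and 1.71 RPKM over the 4 stages, so unlike Gata1 and Gata2 it was highest in MES (3.38 to 3.87, 95% Poisson interval). Of the 4 genes Gata3, Trps1, Gatad1 and Zglp1, 1 was at least 2-fold higher in MES than in ESC (median 0.35), and 0 differed by 2-fold in the later steps (medians -0.41 and -0.15). Trps1, a repressor gene of bone and hair growth, was at 1.70, 0.746, 0.344 and 0.980 RPKM. The 15 NuRD and CtBP genes, whose products FOG proteins recruit, were at 1.32 RPKM or above in every stage. With the COUP-TF genes Nr2f1 and Nr2f2 added, of 17 genes, 1 was higher and 2 were lower in MES than in ESC (median 0.17), 2 were higher in CP than in MES (median -0.07), and 4 were lower in CM than in CP (median -0.65). Over all genes, 11.1% were higher and 11.2% lower in MES against ESC, 8.91% were higher in CP against MES, and 12.8% were lower in CM against CP. Chd4, the NuRD ATPase gene, was at 95.7, 113, 122 and 79.7 RPKM. The CtBP genes exchanged places, with Ctbp2 going from 161 to 55.4 RPKM between ESC and MES and Ctbp1 from 39.5 to 87.5 RPKM. Nr2f2, whose product COUP-TFII binds FOG2 and which marks atrial and venous cells, was at 0.0873, 0.388, 3.99 and 0.618 RPKM.

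Platelet lineage genes did not all share the CP peak of Gata1. Of 13 megakaryocyte and platelet genes, 6 were in the table, with 0 higher and 1 lower in MES than in ESC (median -0.05), 3 higher in CP than in MES (median 0.98), and 3 higher and 1 lower in CM than in CP (median 0.49). Itga2b, the gene of CD41, which also marks early blood progenitors, was at 0.565, 0.459, 16.9 and 3.69 RPKM. Vwf and Itgb3, which endothelial and other cells make too, were highest in CM at 9.69 and 24.1 RPKM, and Pf4, a platelet chemokine gene, was listed at 0 in ESC and MES and had 0.369 and 3.86 RPKM in CP and CM. Of 9 mast cell genes, only Kit and Mitf were in the table, at 15.3 and 0.722 RPKM in CP and 6.26 and 14.4 RPKM in CM, and both are made in many other cells. In MES against ESC, 0 of them were higher and 1, Kit, was lower (median -1.20), in CP against MES 1 was higher (median 1.08), and in CM against CP 1 was higher and 1 lower (median 1.00). Of 13 endoderm genes in the table, 7 were higher and 1 was lower in MES than in ESC (median 1.65), 3 were higher and 4 lower in CP than in MES (median 0.10), and 3 were higher and 5 lower in CM than in CP (median -0.82).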
